A study of Mus musculus with 30 samples.

Results

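The genes described here make cholesterol and fatty acids or control how much of them a cell makes, takes in and exports. They were chosen by name, as a list of 38 symbols, of which 37 were present among the 23420 genes of each table. The 37 were grouped by role. The mevalonate pathway had 8 genes, sterol synthesis 11, control by sterol regulatory element binding proteins (SREBP) with sterol transport 6, fatty acid synthesis and desaturation 8, and the liver X receptor (LXR) with cholesterol efflux 4. The sterol enzyme Msmo1 stood in the tables under its older symbol Sc4mol.

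All groups started from naive CD4 T cells of C57BL/6 double reporter mice, which report Foxp3 by GFP and IL-10 by Thy1.1. Activation lasted 72 h and used 2.5 ug/ml anti-CD3 with 6 irradiated, CD4-depleted splenocytes for each T cell. Th1 polarisation used 20 ng/ml IL-12 and Th2 polarisation 20 ng/ml IL-4. Tr1 cells, which are regulatory, were made with 25 ng/ml IL-27. Th17 cells of the non-pathogenic kind were made with 2 ng/ml TGFb1 plus 25 ng/ml IL-6. For the pathogenic kind, pTh17, 20 ng/ml IL-1b and 20 ng/ml IL-23 were combined with 25 ng/ml IL-6. Living CD4 T cells without Foxp3-GFP were then split by the IL-10 reporter, and 2000 cells were lysed per library. The 5 cultures gave 10 groups of 3 libraries, 30 in all, numbered 4 to 18 in their titles. Whether the 3 libraries of a group stem from different animals or cultures is not stated, and p-values therefore reflect only how far these libraries spread.

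Cholesterol is built from acetyl-CoA. Acetyl units are joined and reduced to mevalonate, which is turned into isoprenoid units, and the sterol enzymes then close these into rings and trim them to cholesterol. When membranes lack sterol, SCAP carries SREBP proteins to the Golgi, where they are cut free to enter the nucleus and switch on these enzymes and those of fatty acid synthesis. INSIG proteins hold SCAP back when sterol is plentiful. Oxidised sterols activate LXR, which turns on the exporters ABCA1 and ABCG1 and MYLIP, a ligase that removes lipoprotein receptors. Activated T cells are known to raise SREBP-driven synthesis as they build membrane for division.

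Promoter sequences are shown for the cholesterol genes with the clearest mean IL-10 difference, so that the letters can be read beside their values. The 4 with the smallest p-values for the mean over the cultures were Idi1, Cyp51, Fdps and Hmgcs1. RefSeq windows on GRCm38.p6 were matched for 29 of the 37 genes, and Fdps was not among them. Each sequence is the 250 bases before the gene's annotated start, written 5′ to 3′ on the gene's strand. Capitals mark a CCAAT box, read as CCAAT or as ATTGG on the other strand, and the sterol element core TCACNCCAC. Idi1 lies at chr13:8885356-8885605 on the plus strand, Cyp51 at chr5:4104698-4104947 on the minus strand and Hmgcs1 at chr13:119690101-119690350 on the plus strand.
Idi1: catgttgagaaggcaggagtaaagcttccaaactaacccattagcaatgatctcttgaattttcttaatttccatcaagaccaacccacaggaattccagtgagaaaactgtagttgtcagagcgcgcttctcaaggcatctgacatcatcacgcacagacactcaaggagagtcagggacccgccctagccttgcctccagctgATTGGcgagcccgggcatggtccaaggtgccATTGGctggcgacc
Cyp51: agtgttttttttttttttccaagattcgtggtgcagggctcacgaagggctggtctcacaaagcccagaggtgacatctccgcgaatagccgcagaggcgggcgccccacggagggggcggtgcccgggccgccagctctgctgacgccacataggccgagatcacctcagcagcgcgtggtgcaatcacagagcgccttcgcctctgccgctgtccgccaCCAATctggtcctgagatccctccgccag
Hmgcs1: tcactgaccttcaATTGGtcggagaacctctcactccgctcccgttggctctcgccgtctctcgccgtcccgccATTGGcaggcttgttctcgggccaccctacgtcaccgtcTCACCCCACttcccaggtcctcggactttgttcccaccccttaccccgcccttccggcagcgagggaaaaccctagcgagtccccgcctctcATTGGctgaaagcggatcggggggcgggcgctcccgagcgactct
In Idi1 the CCAAT boxes began at positions -45 and -14 from the start, and in Cyp51 the box began at -29. Hmgcs1 had boxes at -237, -176 and -45 and a sterol element core at -137.

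The same motifs were counted on both strands in windows of 300 bases, from 250 before to 50 after the start. Matched members had 1 to 3 windows, and any gene was counted if at least 1 of its windows held the motif. A CCAAT box was present in 22 of the 29 matched genes (75.9%), against 41.1% of 27025 genes in the RefSeq table. It was found in 9 of 9 sterol genes, 6 of 7 mevalonate genes and 4 of 5 SREBP control genes, but in 2 of 5 fatty acid genes and 1 of 3 LXR genes. A GC box, GGGCGG, was present in 23 of 29 (79.3%), against 38.2% of all genes. CCAAT and GGGCGG were searched separately and their matches do not overlap. The sterol element was searched only as the exact core TCACNCCAC, so looser matches were not counted. That core was found in Hmgcs1 alone of the 29, and in 1.44% of all genes. The E-box CACGTG stood in 6 of 29 (20.7%) against 8.09%. These are matches of letters in a window and not measured binding.

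Libraries held between 4394704 and 11850597 expected counts, and log expression of libraries of a group correlated at 0.971 to 0.992 over 30 pairs. All 37 genes were among the 12611 that passed the filter on low counts. Group size set how many libraries a gene needed to pass. Those libraries could be of any group, so a gene high in few groups was kept. A list of 6 T cell genes summed to 3084 to 5020 CPM, counts scaled to the library's total, across the libraries, with Cd3e at 305 to 625 and Cd4 at 508 to 870. Of 12 B cell markers, 10 were tested and 10 were higher in IL-10 positive pTh17 cells, beside 10.1% of all genes. Their sum there was 239 to 320 CPM against 111 to 122 in the IL-10 negative cells. Most of that sum was H2-Ab1, and Pax5 did not exceed 1.26 CPM anywhere. The 6 NK markers summed to 81.7 to 85.3 CPM in IL-10 positive Th1 and 59.4 to 68.5 CPM in IL-10 positive Tr1 cells, nearly all Klrk1, with Klra4 at 0 in every library. The 12 myeloid markers reached 245 to 261 CPM in IL-10 positive Th1 cells, mostly Cst3 and Itgam, while Lyz1 stayed at or below 0.952 CPM. Their part in the results was not tested. IL-10 positive Tr1 library 18 stood apart in that its 10 highest genes took 32.8% of its counts, against 24.6% and 24.9% in libraries 17 and 16. The libraries are bulk samples, so fewer cells of a type and less RNA per cell cannot be told apart.

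The cultures differed widely in how much of this pathway they expressed. Levels between genes are given in TPM, a share of transcripts that is scaled for gene length. Summed over the 19 mevalonate and sterol genes, the level was lowest in IL-10 negative Tr1 cells at 346 ± 13.2 TPM (SD, n = 3). IL-10 positive Tr1 cells followed at 531 ± 15 TPM, and their range overlapped that of IL-10 negative Th17 cells at 540 ± 10.3 TPM. IL-10 positive Th17 cells stood at 903 ± 42.7 TPM, IL-10 negative Th1 at 1237 ± 48.4 TPM and IL-10 negative Th2 at 1539 ± 40.5 TPM. Above them came IL-10 positive Th2 cells at 1884 ± 56.3 TPM and IL-10 negative pTh17 cells at 2587 ± 23.8 TPM. The highest levels were in IL-10 positive pTh17 cells at 2979 ± 91.8 TPM and IL-10 positive Th1 cells at 3023 ± 91.2 TPM, whose ranges overlapped. All other neighbours in this order were separate. Within every culture the 3 IL-10 positive libraries lay above the 3 IL-10 negative ones.

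**Figure D1:**
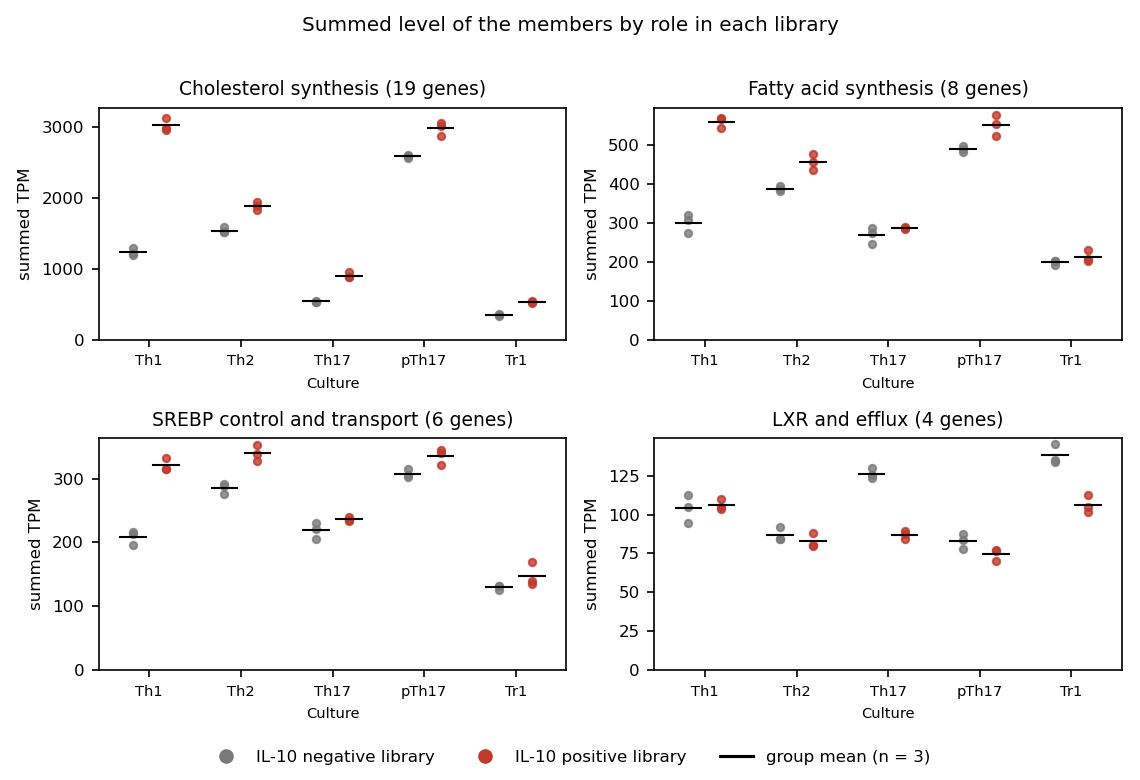
Summed TPM of the mevalonate and sterol genes and of the other role groups in each library, by culture and IL-10 compartment, with 1 point per library. For the 19 cholesterol synthesis genes the points run from 333 TPM in an IL-10 negative Tr1 library to 3127 TPM in an IL-10 positive Th1 library.

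The role groups did not follow 1 order. The SREBP control genes summed to 130 ± 3.52 TPM in IL-10 negative Tr1 cells and 340 ± 12.1 TPM in IL-10 positive Th2 cells, a narrower span than the enzymes. The summed level of the 4 LXR genes, most of it from Nr1h2, was highest in IL-10 negative Tr1 cells at 138 ± 6.35 TPM and lowest in IL-10 positive pTh17 cells at 74.5 ± 3.96 TPM. Its members differed in order, and Abca1 and Mylip were highest in IL-10 positive Th1 cells, at 2.67 ± 0.137 and 28.7 ± 2.69 TPM. Among the enzymes, Fdps, which makes farnesyl pyrophosphate, moved from 44.1 ± 3.9 TPM in IL-10 negative Tr1 cells to 838 ± 18 TPM in IL-10 positive Th1 cells. Idi1, which isomerises the isoprenoid unit, moved from 5.48 ± 0.54 TPM to 161 ± 7.3 TPM over the same groups. Ggps1, which extends farnesyl to geranylgeranyl pyrophosphate, differed little, at 20.8 ± 1.2 TPM in its lowest group, IL-10 negative pTh17, and 31.6 ± 1.6 TPM in its highest, IL-10 negative Tr1. In CPM other groups stood at the ends for Ggps1, IL-10 positive Th17 at 26.7 and IL-10 positive Th1 at 39.5. Nr1h2, which encodes LXR beta, varied 1.28-fold in CPM between its lowest and highest group, IL-10 positive pTh17 and IL-10 negative Th2. In TPM its ends were IL-10 negative Th1 at 62.0 and IL-10 negative Th17 at 86.6.

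Each culture was compared with the mean of the other 4, both compartments averaged, with the quasi-likelihood test of edgeR and Benjamini-Hochberg adjustment over all 12611 genes, and a gene was called at an adjusted p below 0.05. These 5 comparisons share libraries. In pTh17 29 of 37 genes were higher and 7 lower, where 34.3% and 31.8% of all genes were called. In Th1 32 were higher and 2 lower (all genes 32.6% and 27.4%), and the 2 lower became 1 without IL-10 positive Th1 library 5. Th2 had 32 higher and 3 lower, beside 39.4% and 39.2% of all genes. Th17 and Tr1 lay on the opposite side. Th17 had 2 genes higher and 32 lower (all genes 29.1% and 28.4%), and Tr1 5 higher and 31 lower (36.5% and 35.7%). The 5 higher genes in Tr1 became 3 without IL-10 negative Tr1 library 18. The median log2 difference of the 11 sterol genes was 1.41 in pTh17, 0.98 in Th1, 0.73 in Th2, -1.0 in Th17 and -2.20 in Tr1. For the 4 LXR genes it was 0.92 in Th1, -0.45 in Th2, -0.36 in Th17, -0.86 in pTh17 and 0.97 in Tr1. Tested for equality over the 5 cultures, 37 of 37 genes differed among IL-10 positive groups, where 92.2% of all genes did, and 37 of 37 among IL-10 negative groups, beside 88.2%, so these counts are near the background. Nr1h2 lost both of these calls when counts were thinned to 1 depth, with adjusted p = 0.0976 and 0.226.

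In each culture most of the called genes were higher in IL-10 positive than in IL-10 negative cells, most widely in Th1 and least in pTh17. In Th1 30 of the 37 genes were higher and 2 lower, while 23.5% of all genes were called higher and 20.4% lower. In Th17 24 were higher and 4 lower (all genes 29.2% and 28.9%), and in Tr1 20 were higher and 3 lower (20.5% and 14.2%), or 18 and 3 without IL-10 positive library 18. The 20 in Tr1 also became fewer when any other Tr1 library was left out. In Th2 15 were higher and 0 lower (12.3% and 9.49%). At an unadjusted p below 0.05 the Th2 counts were 25 and 0 by edgeR, and DESeq2 gave 16 higher and 0 lower at its adjusted p. In pTh17 8 were higher and 4 lower, beside 10.1% and 8.33% of all genes. Without IL-10 positive pTh17 library 14, 5 were higher. The 4 lower became 1 without IL-10 positive library 13 or IL-10 negative library 15, and 2 without IL-10 positive library 15. The 2 lower in Th1 became 1 without any of IL-10 negative libraries 4, 5 and 6 or IL-10 positive libraries 5 and 6. Averaged over the 5 cultures, 30 were higher and 3 lower, beside 29.6% and 28.2% of all genes.

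The median size of the difference varied between roles, while members of the same role also differed widely. The median log2 difference over the 37 genes was 0.95 in Th1, 0.50 in Th17, 0.43 in Tr1, 0.23 in Th2 and 0.08 in pTh17, while the median over all genes lay between -0.04 and 0.05. In Th1 the median was 1.44 for mevalonate genes, 1.28 for sterol genes, 0.56 for SREBP control genes, 0.72 for fatty acid genes and 0.11 for LXR genes. In Th17 the LXR genes stood at -1.64 and the mevalonate genes at 1.00. Tr1 had the same split of signs, at -0.76 for LXR genes and 0.64 for mevalonate genes. Without any test, the 3 IL-10 positive libraries all lay above the 3 IL-10 negative ones for 32 genes in Th1, 25 in Th2, 25 in Th17, 11 in pTh17 and 22 in Tr1. Among all genes tested this share was 26.8%, 20.9%, 31.2%, 17.4% and 23.7%, in the same order. Lying wholly below were 2, 0, 5, 5 and 4 of the 37, beside 24.5%, 17.8%, 31.2%, 15.3% and 17.6% of all genes.

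**Figure D2:**
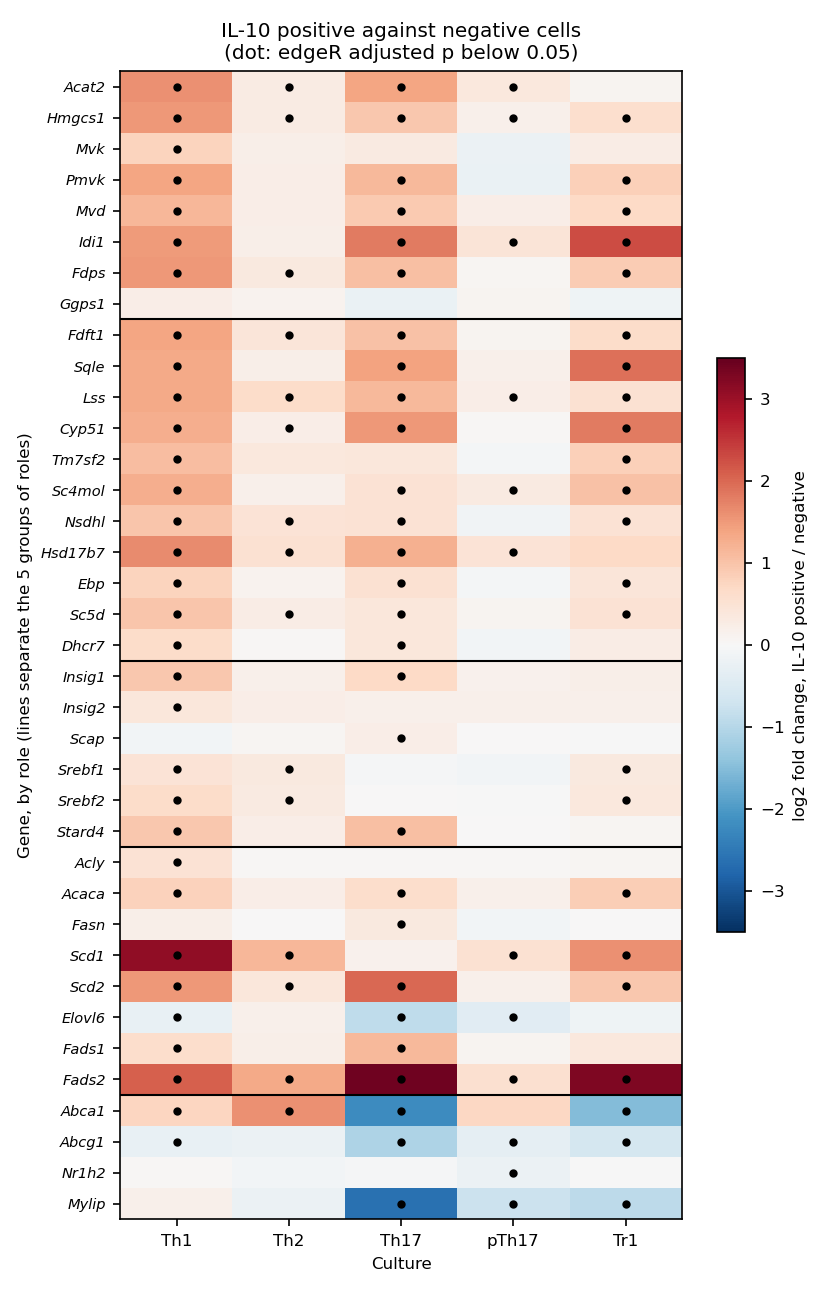
Log2 difference between IL-10 positive and IL-10 negative cells for each of the 37 genes (rows, by role) in each of the 5 cultures (columns), with called genes marked. The Th1 column holds 30 higher genes and the pTh17 column 8, and the 4 LXR genes at the foot are mostly lower in Th17, pTh17 and Tr1.

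Cell cycle genes moved with the compartments. A list of 22 was higher in IL-10 positive cells for 21 genes in Th1, 8 in Th2, 22 in Th17, 21 in pTh17 and 22 in Tr1. For all genes the shares were 23.5%, 12.3%, 29.2%, 10.1% and 20.5%. Their summed level was 1177 to 1316 CPM in IL-10 negative and 2475 to 2591 CPM in IL-10 positive Th1 cells. In Th17 it went from 992 to 1189 CPM up to 6196 to 6527 CPM, and in Tr1 from 510 to 577 CPM up to 1638 to 1720 CPM. In pTh17 it was 2964 to 3190 CPM and 4098 to 4478 CPM, and in Th2 7533 to 8195 CPM and 8253 to 8374 CPM. The order of the cultures differed between the lists, since Th2 held the most cell cycle transcripts and pTh17 and Th1 the most cholesterol synthesis transcripts. The part of the cell cycle in the pathway's differences was not tested.

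Of the mevalonate genes 7 of 8 were higher in Th1, 6 in Th17, 5 in Tr1, 3 in Th2 and 3 in pTh17. Among all genes 23.5%, 29.2%, 20.5%, 12.3% and 10.1% were called higher, in the same order. Hmgcs1, which condenses acetyl units ahead of the pathway's committed step, was called higher in every culture. In Th1 it stood at 287, 267 and 259 CPM in IL-10 negative and 773, 735 and 815 CPM in IL-10 positive libraries, a log2 difference of 1.51 ± 0.06 (SE, adjusted p = 1.57e-21). The groups were far apart. In Tr1 it stood at 45.5, 41.8 and 44.7 CPM against 67.7, 63.5 and 65.8 CPM, a difference of 0.58 ± 0.08 (adjusted p = 4.39e-07). In pTh17, where its level was already 623 to 677 CPM in IL-10 negative cells, the difference was 0.18 ± 0.06 (adjusted p = 0.0386). That call was lost without pTh17 IL-10 positive library 13 or 14 or IL-10 negative library 14 or 15, with adjusted p up to 0.231.

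Idi1 had its greatest relative difference where its level was lowest. In Tr1 it went from 8.93, 7.38 and 7.97 CPM in IL-10 negative to 36.1, 40.1 and 42.3 CPM in IL-10 positive libraries, a log2 difference of 2.29 ± 0.15 (adjusted p = 7.55e-16). In Th17 the values were 23.8, 29.2 and 23.8 CPM and 87.1, 93.6 and 90.1 CPM, a difference of 1.82 ± 0.10. Neither pair of groups overlapped. In Th2 the values were 190, 177 and 202 CPM against 213, 222 and 220 CPM, a difference of 0.20 ± 0.08 that missed the threshold (adjusted p = 0.0685).

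Fdps rose 1.52 ± 0.07 in Th1 on the log2 scale, from 222, 211 and 198 CPM to 613, 586 and 611 CPM (adjusted p = 4.38e-21). It rose 1.04 ± 0.08 in Th17, 0.89 ± 0.09 in Tr1 and 0.35 ± 0.06 in Th2. In pTh17 it was already high in both compartments, at 487, 502 and 534 CPM against 548, 506 and 541 CPM, and the difference of 0.07 ± 0.06 was not called (adjusted p = 0.553). Those groups overlapped.

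Acat2, which encodes an acetyl-CoA acetyltransferase that feeds the pathway, departed from its neighbours in Tr1. It rose from 35.5, 37.5 and 33.4 CPM to 99.0, 105 and 118 CPM in Th1 (1.60 ± 0.09, adjusted p = 1.31e-17). In Tr1 it stood at 16.6, 18.6 and 15.1 CPM against 13.2, 20.0 and 19.5 CPM, a difference of 0.09 ± 0.13 (adjusted p = 0.644), and the groups overlapped. Pmvk and Mvd, the phosphomevalonate kinase and mevalonate diphosphate decarboxylase, rose in Th1 (1.39 ± 0.11 and 1.17 ± 0.10), Th17 (1.13 ± 0.14 and 0.92 ± 0.12) and Tr1 (0.84 ± 0.13 and 0.70 ± 0.16). Mvk, the mevalonate kinase, rose in Th1 alone among the cultures by the call (0.78 ± 0.14, adjusted p = 1.1e-05), and at 3.98 to 8.51 CPM it was low in Th17 and Tr1. Ggps1 was not called in any culture, its values between -0.24 ± 0.11 in Th17 and 0.22 ± 0.11 in Th1, the latter called by DESeq2. Mvd overlaps a noncoding gene over 3213 bases and Acat2 a pseudogene over 634, and reads there may be shared, since strand was not marked.

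Of the 11 sterol genes 11 were higher in Th1, 10 in Th17, 9 in Tr1, 6 in Th2 and 3 in pTh17. Beside these stood 23.5%, 29.2%, 20.5%, 12.3% and 10.1% of all genes. Cyp51, the lanosterol demethylase, rose from 192, 168 and 202 CPM to 460, 449 and 462 CPM in Th1 (1.28 ± 0.08, adjusted p = 1.17e-16). In Tr1 it rose from 12.8, 14.8 and 21.3 CPM to 62.5, 61.7 and 51.4 CPM (1.81 ± 0.12, adjusted p = 6.23e-16). The groups were separate in both cultures. In Th17 the rise was 1.53 ± 0.09. In pTh17 Cyp51 stood at 335, 315 and 334 CPM against 359, 326 and 331 CPM, overlapping groups with a difference of 0.05 ± 0.08 (adjusted p = 0.753). Its rise of 0.22 ± 0.07 in Th2 (adjusted p = 0.0298) was lost without IL-10 negative or positive Th2 library 7 or 8, with adjusted p of up to 0.132.

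Sqle, the squalene epoxidase, showed the same order. It rose from 4.47, 7.19 and 8.39 CPM to 23.6, 29.0 and 26.1 CPM in Tr1 (1.94 ± 0.16, adjusted p = 9.48e-13). In Th17 it rose 1.41 ± 0.10 and in Th1 1.31 ± 0.09. Differences of 0.21 ± 0.08 in Th2 and 0.18 ± 0.08 in pTh17 were not called (adjusted p = 0.0706 and 0.138), although DESeq2 called that in Th2.

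**Figure D3:**
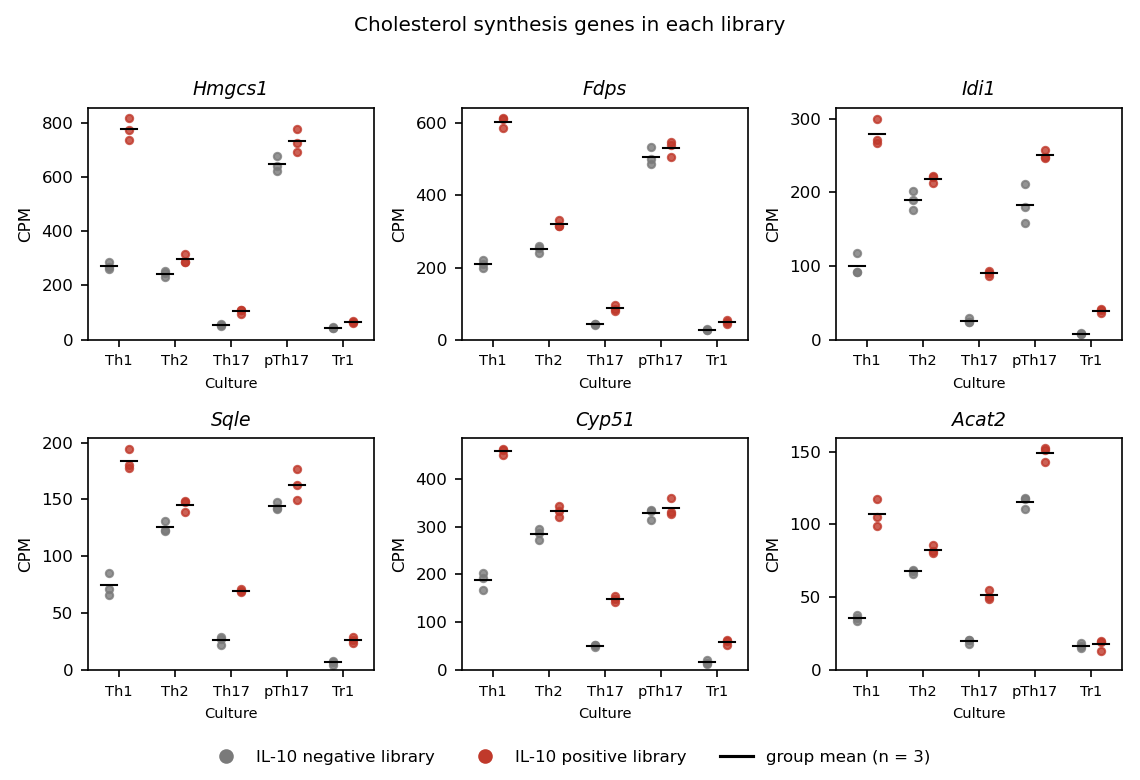
CPM of Hmgcs1, Fdps, Idi1, Sqle, Cyp51 and Acat2 in each of the 30 libraries, by culture and IL-10 compartment, with 1 point per library. IL-10 positive points lie far above the negative ones in Th1, while in pTh17 the Fdps and Cyp51 points overlap.

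Lss, the lanosterol synthase, was higher in 5 cultures, by 1.34 ± 0.09 in Th1, 0.65 ± 0.08 in Th2, 1.14 ± 0.11 in Th17, 0.54 ± 0.14 in Tr1 and 0.24 ± 0.08 in pTh17. The pTh17 call (adjusted p = 0.0336) was lost when any 1 of the 6 pTh17 libraries was left out, with adjusted p of up to 0.0913. Fdft1, the squalene synthase, rose 1.39 ± 0.08 in Th1, 1.02 ± 0.09 in Th17, 0.64 ± 0.12 in Tr1 and 0.42 ± 0.07 in Th2. It overlaps the protease gene Ctsb over 774 bases, and Lss a noncoding gene over 11269, so that some reads of each are uncertain. Hsd17b7, a sterol ketone reductase, was called higher in 4 cultures, all but Tr1. The rise was 1.64 ± 0.15 in Th1 and 0.47 ± 0.12 in pTh17, where few other members rose. Sc4mol, which removes methyl groups from the ring, rose in Th1 (1.28 ± 0.08), Th17 (0.49 ± 0.10), Tr1 (1.02 ± 0.13) and pTh17 (0.32 ± 0.08).

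In Th1 Nsdhl and Sc5d each rose 0.97 (SE 0.11 and 0.08), Ebp 0.77 ± 0.08 and Dhcr7, the last reductase of the route, 0.63 ± 0.10. In Th17 their rises lay between 0.40 ± 0.12 for Dhcr7 and 0.54 ± 0.08 for Ebp, and that of Dhcr7 was lost when counts were thinned to 1 depth (adjusted p = 0.158). In Tr1 Ebp rose 0.43 ± 0.09, Nsdhl 0.50 ± 0.16 and Sc5d 0.51 ± 0.10, and the call of Nsdhl was lost without IL-10 positive library 17 (adjusted p = 0.0706). Tm7sf2, a sterol reductase at low level, rose 1.07 ± 0.19 in Th1. Its Tr1 values of 2.23, 2.46 and 2.42 CPM against 1.65, 4.01 and 7.09 CPM overlapped. The Tr1 call at 0.84 ± 0.34 (adjusted p = 0.0491) was lost without any of IL-10 negative libraries 16, 17 and 18 or IL-10 positive library 17, and the difference was 0.26 (adjusted p = 0.648) without IL-10 positive library 18.

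Of the 6 SREBP control and sterol transport genes 5 were higher in Th1, 3 in Th17, 2 in Th2 and 2 in Tr1. The shares of all genes were 23.5%, 29.2%, 12.3% and 20.5% in the same order. Srebf1 and Srebf2 encode the SREBP proteins. Srebf2 rose from 103, 121 and 127 CPM to 174, 187 and 186 CPM in Th1 (0.64 ± 0.09, adjusted p = 1.96e-07) and 0.33 ± 0.09 in Th2. In Th17 it stood at 98.8, 98.7 and 99.6 CPM against 110, 100 and 92.3 CPM, a difference of 0.03 ± 0.09 (adjusted p = 0.828), and in pTh17 the difference was -0.02 ± 0.09. Those groups overlapped. Its Tr1 rise of 0.36 ± 0.10 (adjusted p = 0.00412) was lost without IL-10 negative library 16 (adjusted p = 0.0527) or IL-10 positive library 16 (0.203, adjusted p = 0.112). Srebf1 rose 0.49 ± 0.07 in Th1, 0.35 ± 0.07 in Th2 and 0.34 ± 0.08 in Tr1, and its values of -0.04 ± 0.07 in Th17 and -0.09 ± 0.07 in pTh17 were not called. In TPM the ratio of Srebf1 to Srebf2 stayed between 0.986 and 1.44 over the 10 groups. The table does not separate the transcripts of Srebf1.

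Insig1, which retains SCAP and is itself a target of SREBP, went from 78.7, 81.3 and 93.0 CPM to 168, 157 and 166 CPM in Th1 (0.95 ± 0.08, adjusted p = 1.58e-12) and rose 0.70 ± 0.09 in Th17. In Tr1 it stood at 26.0, 28.0 and 31.6 CPM against 38.7, 28.6 and 32.4 CPM, overlapping groups with a difference of 0.20 ± 0.11 (adjusted p = 0.155). Insig2, its paralog, rose in Th1 only by the call (0.41 ± 0.12), and the ratio of Insig1 to Insig2 in TPM ran from 1.48 in IL-10 negative Tr1 cells to 5.08 in IL-10 negative pTh17 cells. Scap, the escort protein, was called in Th17 alone, at 0.23 ± 0.10 (adjusted p = 0.0449). That call was lost without IL-10 negative Th17 library 10 or 12 or IL-10 positive library 10 or 11, with adjusted p of up to 0.156. Stard4, a carrier of cholesterol between membranes, rose 0.94 ± 0.12 in Th1 and 1.06 ± 0.14 in Th17, and in Tr1 stood at 0.06 ± 0.17 (adjusted p = 0.826).

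Of the 8 fatty acid genes 6 were higher and 1 lower in Th1 (all genes 23.5% and 20.4%). In Th17 5 were higher and 1 lower (29.2% and 28.9%), and in pTh17 2 and 1 (10.1% and 8.33%). Tr1 had 4 higher (20.5%) and Th2 3 (12.3%). Scd1 and Scd2 encode stearoyl-CoA desaturases, which place the first double bond. Scd1 rose in Th1 from 7.06, 6.92 and 7.81 CPM to 57.4, 63.4 and 67.0 CPM, a log2 difference of 3.10 ± 0.18 (adjusted p = 3.15e-17), and this was the largest called rise of any of the 37 genes in Th1. In Th2 it rose from 5.06, 3.49 and 4.23 CPM to 12, 7.68 and 9.04 CPM (1.17 ± 0.20). In pTh17 its rise of 0.54 ± 0.15 was lost without IL-10 positive library 15 (adjusted p = 0.0542). In Th17 it was barely detected, with 6 counts over the 3 IL-10 negative and 11 over the 3 IL-10 positive libraries, a ratio after scaling of 1.11 (95% exact interval 0.375 to 3.65). In Tr1 9 and 22 counts gave a ratio of 3.07 (1.36 to 7.56), and the call there (adjusted p = 0.0351) was lost without IL-10 negative library 16 or 18 or IL-10 positive library 16 or 18, with adjusted p of up to 0.233. Without IL-10 negative library 17 the log2 difference in Tr1 was 2.20. These intervals cover counting error only.

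Scd2 was the more abundant of the pair in every group. It rose from 18.3, 20.4 and 22.1 CPM to 85.5, 81.4 and 80.4 CPM in Th17 (2.02 ± 0.13, adjusted p = 3.57e-16). In Th1 it rose from 227, 314 and 321 CPM to 811, 841 and 802 CPM (1.5 ± 0.10), in Tr1 0.94 ± 0.12 and in Th2 0.41 ± 0.10. In pTh17 it was at 455 to 525 CPM in IL-10 negative and 519 to 594 CPM in IL-10 positive cells, overlapping groups (0.17 ± 0.10, adjusted p = 0.27). The TPM ratio of Scd1 to Scd2 was 0.0293 in IL-10 negative and 0.0865 in IL-10 positive Th1 cells, with library ranges of 0.0251 to 0.0351 and 0.0800 to 0.0944. Reads common to these paralogs were divided between them by estimate.

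Fads2, a desaturase of polyunsaturated fatty acids, was higher in 5 cultures. In Th1 it rose from 11, 6.92 and 7.24 CPM to 31.1, 31.0 and 43.1 CPM (2.09 ± 0.19, adjusted p = 8.68e-12), and in Th2 1.32 ± 0.19. In Th17 there were 7 counts over the IL-10 negative and 127 over the IL-10 positive libraries, a ratio of 11 (95% exact interval 5.17 to 27.8). In Tr1 3 and 25 counts gave a ratio of 10.4 (3.19 to 54.1). The fitted log2 differences of 3.40 in Th17 and 3.27 in Tr1 rest on these few counts. They became 4.04 without IL-10 negative Th17 library 10, and 4.24 or 2.57 without IL-10 negative Tr1 library 16 or 18. In pTh17 the rise of 0.57 ± 0.17 was lost without IL-10 positive library 14 or IL-10 negative library 15, with adjusted p of 0.0647 and 0.0797. Fads1, which acts in the same route, rose 0.63 ± 0.12 in Th1 and 1.14 ± 0.12 in Th17, and the TPM ratio of Fads1 to Fads2 was 1.19 in IL-10 negative and 0.439 in IL-10 positive Th1 cells.

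Fasn, the fatty acid synthase, was called in Th17 alone, from 163, 185 and 203 CPM to 230, 242 and 225 CPM (0.34 ± 0.09, adjusted p = 0.00141). In Th1 it stood at 118, 130 and 131 CPM against 144, 143 and 152 CPM, separate groups with a difference of 0.21 ± 0.09 (adjusted p = 0.0602), called by DESeq2 and with other size factors. Acly, which cuts citrate to acetyl-CoA, rose in Th1 (0.51 ± 0.06) and its values in the other 4 cultures lay between 0.04 and 0.07, with the opposite sign in TPM in Th17 and Tr1. Acaca, the acetyl-CoA carboxylase, rose 0.81 ± 0.14 in Th1, 0.62 ± 0.14 in Th17 and 0.85 ± 0.19 in Tr1. It overlaps another gene over 19116 bases, so its reads may be shared.

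Elovl6, which lengthens palmitate, went the other way. It fell from 94.7, 89.7 and 86.9 CPM to 46.8, 49.4 and 50.5 CPM in Th17 (-0.89 ± 0.07, adjusted p = 6.36e-14). It fell from 96.0, 95.3 and 103 CPM to 69.2, 76.6 and 76.0 CPM in pTh17 (-0.41 ± 0.07, adjusted p = 1.56e-05). The groups were separate in both. In Th1 it fell by 0.25 ± 0.07, a call lost without the filter on low counts (adjusted p = 0.114), and in Th2 it stood at 0.17 ± 0.07 (adjusted p = 0.0766). Its level also differed in order from that of the other fatty acid genes, since Tr1 cells held the most. Tr1 values were 165 to 176 CPM in IL-10 negative and 153 to 157 CPM in IL-10 positive libraries.

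**Figure D4:**
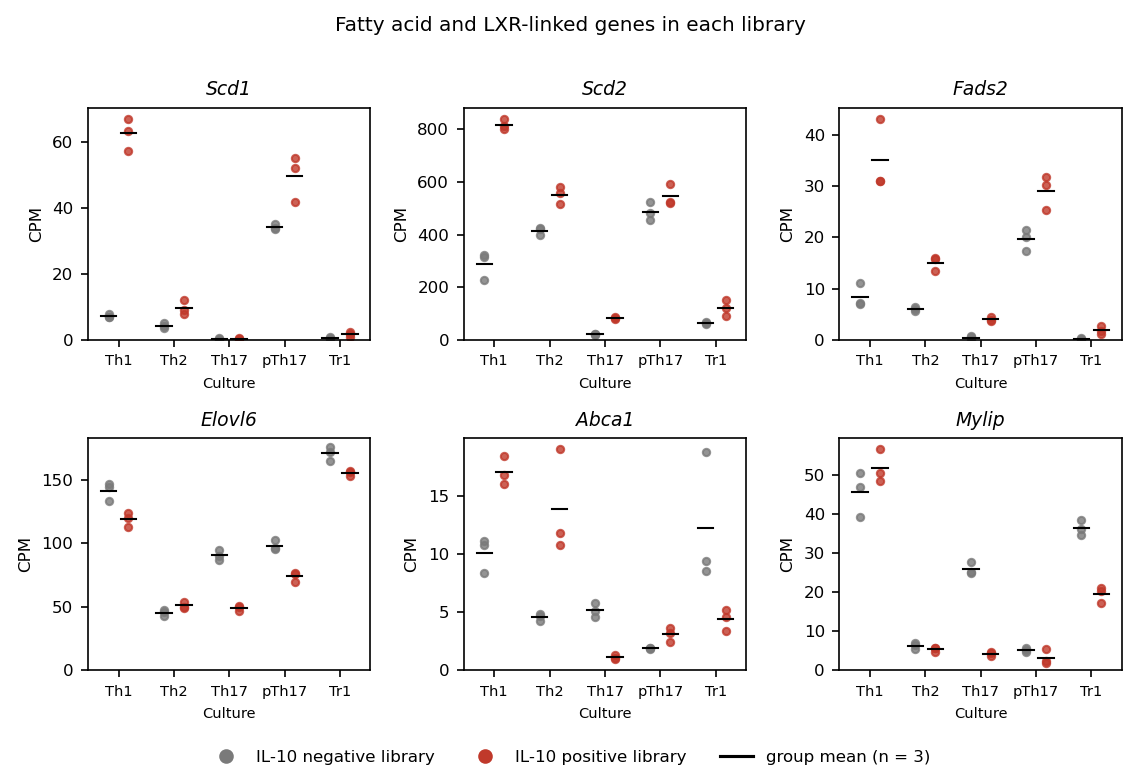
CPM of Scd1, Scd2, Fads2, Elovl6, Abca1 and Mylip in each of the 30 libraries, by culture and IL-10 compartment, with 1 point per library. Scd1 is near 0 in Th17 and Tr1, Elovl6 is lower in IL-10 positive Th17 and pTh17 cells, and Abca1 is higher in IL-10 positive Th2 and lower in IL-10 positive Th17 cells.

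The LXR and efflux genes were lower in IL-10 positive cells for 3 of 4 genes in Th17 (28.9% of all genes), 3 in pTh17 (8.33%), 3 in Tr1 (14.2%) and 1 in Th1 (20.4%). Abca1 was the 1 gene of the 4 that was higher, in Th1 (23.5% of all genes) and Th2 (12.3%). Mylip fell from 25.2, 27.7 and 24.9 CPM to 4.37, 3.64 and 4.68 CPM in Th17 (-2.61 ± 0.17, adjusted p = 6.57e-16). In Tr1 it fell from 34.5, 36.2 and 38.4 CPM to 20.3, 17.2 and 21.0 CPM (-0.90 ± 0.15). In Th1 it stood at 39.2, 50.4 and 46.9 CPM against 50.3, 48.3 and 56.6 CPM, overlapping groups with a difference of 0.18 ± 0.13 (adjusted p = 0.278). Its pTh17 call (-0.74 ± 0.24, adjusted p = 0.0263) was lost without IL-10 negative library 13 or 15 or IL-10 positive library 13 or 14, with adjusted p of up to 0.207.

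Abca1, the exporter that loads cholesterol onto lipoprotein, moved in opposite directions between cultures. It rose from 4.86, 4.66 and 4.23 CPM to 19, 10.7 and 11.8 CPM in Th2 (1.60 ± 0.22, adjusted p = 6.25e-07) and from 10.8, 11.1 and 8.38 CPM to 18.4, 16.8 and 16 CPM in Th1 (0.76 ± 0.22). It fell from 5.73, 4.56 and 5.11 CPM to 1.07, 1.31 and 0.935 CPM in Th17 (-2.20 ± 0.34, adjusted p = 5.59e-07). In Tr1 it fell from 9.34, 8.52 and 18.8 CPM to 5.19, 4.61 and 3.32 CPM (-1.52 ± 0.28). The compartments were separate in each of these cultures, and IL-10 negative Tr1 library 18 stood above the other libraries of its group.

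Abcg1, the other exporter, fell in 4 cultures. In Th17 it went from 47.0, 45.3 and 53.1 CPM to 23.0, 21.4 and 24.1 CPM (-1.08 ± 0.10, adjusted p = 1.51e-11) and in Tr1 from 109, 114 and 126 CPM to 72.6, 83.7 and 72.0 CPM (-0.62 ± 0.10). Its calls in Th1 (-0.27 ± 0.10, adjusted p = 0.0271) and pTh17 (-0.32 ± 0.10, adjusted p = 0.0239) were weak. The first was lost with other size factors, with DESeq2, and without any of IL-10 negative Th1 libraries 4, 5 and 6 or IL-10 positive libraries 5 and 6, with adjusted p of up to 0.137 among the latter. The second was lost without IL-10 positive pTh17 library 13 or 15 or IL-10 negative library 15, with adjusted p of up to 0.253. Nr1h2 was called lower in pTh17 only (-0.21 ± 0.07, adjusted p = 0.0313), and lost the call without IL-10 positive library 13 or 15 or IL-10 negative library 14 or 15, with adjusted p of up to 0.129.

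Whether the IL-10 difference itself varied between cultures was tested with an interaction in the same model. It was unequal over the 5 cultures for 34 of 37 genes, where 60.7% of all genes were called. For each culture its IL-10 difference was then set against the mean of the other 4, and these 5 comparisons share libraries. The difference in Th1 was greater for 27 genes and smaller for 0, beside 11.6% and 10.3% of all genes. At an unadjusted p below 0.05 these counts were 30 and 0, and DESeq2 gave 28 and 0 at its adjusted p. In pTh17 1 was greater and 27 smaller (8.94% and 15.2%), and the 1, Abca1, lost its call without IL-10 negative or positive library 13 or 14 or IL-10 negative library 15. Its adjusted p was then 0.0641 to 0.113. Th2 had 4 greater and 18 smaller (8.44% and 12.3%), and Th17 17 greater and 7 smaller (23.9% and 22.6%). Tr1 had 5 greater and 3 smaller (14.4% and 7.76%), and the 5 became 3 without IL-10 positive library 17 or IL-10 negative library 18.

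The members behind these counts differed by role. All 11 sterol genes and 7 of 8 mevalonate genes had a greater difference in Th1 (11.6% of all genes). In pTh17 11 and 7 had a smaller one (15.2% of all genes). Hmgcs1 had an IL-10 difference 1.02 ± 0.07 greater in Th1 than the mean of the others (adjusted p = 6.01e-14), and Acat2 1.07 ± 0.10. In pTh17 Cyp51 was 1.17 ± 0.09 below the others (log2 value -1.17, adjusted p = 3.65e-13) and Pmvk stood at -1.13 ± 0.12. In Th2 Idi1 stood at -1.30 ± 0.10 (adjusted p = 1.58e-13) and Sqle at -1.0 ± 0.10, while Abca1 stood at 2.16 ± 0.27 and Mylip at 0.81 ± 0.21. In Th17 Scd2 stood at 1.27 ± 0.14 and Mylip at -2.19 ± 0.20.

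Tr1 split the cholesterol genes. Idi1 had a greater difference there by 1.30 ± 0.16 (adjusted p = 3.4e-08), Sqle by 1.16 ± 0.17 and Cyp51 by 1.04 ± 0.12. Acat2 had a smaller one, at -0.82 ± 0.14 (adjusted p = 1.71e-05), and Hmgcs1 at -0.16 ± 0.09 and Fdps at 0.15 ± 0.10 were not called (adjusted p = 0.212 and 0.318). Stard4 at -0.50 ± 0.18 was called, and lost the call without IL-10 negative library 16 or 17 or IL-10 positive library 17 or 18, with adjusted p of up to 0.192. In Th1 the same genes had another order, since Idi1, at 0.29 ± 0.10, was among the smallest of the called values. Its call (adjusted p = 0.0376) was lost without Th1 IL-10 positive library 4, Th1 IL-10 negative library 5 or 6, IL-10 negative Th17 library 11 or IL-10 negative Tr1 library 16, with adjusted p of up to 0.156.

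**Figure D5:**
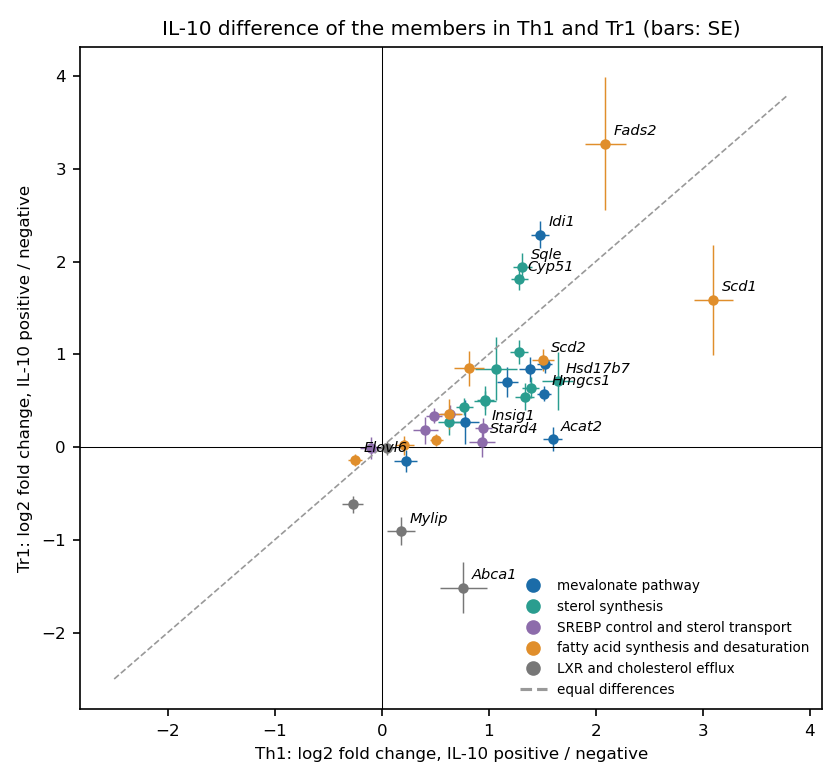
Log2 difference between IL-10 positive and IL-10 negative cells in Th1 (x axis) and in Tr1 (y axis) for the 37 genes, with standard errors as bars and colours by role. Idi1, Cyp51 and Sqle lie above the diagonal at 2.29, 1.81 and 1.94 in Tr1, Acat2 lies far below it at 1.60 in Th1 and 0.09 in Tr1, and Abca1 is higher in Th1 and lower in Tr1.

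Other genes of lipid handling, listed by role, were counted in the same fit and read against the shares of all genes given above for each culture. Of 22 genes of SREBP activation and sterol handling, 9 were higher and 6 lower in Th1, 6 and 3 in Th2, 4 and 9 in Th17, 1 and 7 in pTh17, and 1 and 5 in Tr1. Scarb1, a lipoprotein receptor, rose 1.16 in Th1 and 1.51 in Th17 on the log2 scale. Rnf139 was called lower in all 5 cultures, from -0.81 in Th17 to -0.30 in Th2 and Tr1. Lipa was called lower in every culture but Th1, and Gramd1a in Th1 and Th17. Of 8 tested genes of oxysterol synthesis and LXR targets, 4 were higher and 3 lower in Th1, while 5 were lower in Th17. Lpcat3, a phospholipid remodelling enzyme and LXR target, rose 0.73 in Th1, and Arl4c, another target, stood at 0.58 in Th1 and -1.70 in Th17, both called. Ncor1, of the same list, was called lower in Th1 (-0.571), Th17 (-0.455) and Tr1 (-0.412).

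For all genes the shares called higher were 23.5% in Th1, 12.3% in Th2, 29.2% in Th17, 10.1% in pTh17 and 20.5% in Tr1. The shares called lower were 20.4%, 9.49%, 28.9%, 8.33% and 14.2%, in the same order. Isoprenoid use, with 16 genes, had 5 higher and 1 lower in Th1 and 7 and 3 in Th17. Pdss1 rose 1.25 in Th1 and 1.30 in Th17, while Fntb was called lower in every culture but Th2, at -0.775 in Th1. Of 15 tested genes that supply and lengthen fatty acids, 7 were higher and 1 lower in Th1, 6 and 1 in Th2, 8 and 2 in Th17, and 4 and 2 in Tr1. Hsd17b12, a ketoreductase of elongation, rose in 5 cultures, by 0.35 in pTh17 to 0.86 in Th17. Mid1ip1, which activates acetyl-CoA carboxylase, rose 0.98 in Th1 and 1.60 in Th17. Of 21 tested fatty acid oxidation genes, 11 were higher and 4 lower in Th17, 7 were higher in Th2 and 6 were lower in pTh17. Acadl, a mitochondrial dehydrogenase of long chains, rose 2.31 in Th17, 1.19 in Th2 and 0.94 in Th1, so that genes of breakdown and of synthesis were both among those higher in IL-10 positive Th17 cells. In Th1 the median log2 difference was -0.01 for SREBP activation, 0.22 for oxysterol and LXR targets, 0.22 for isoprenoid use, 0.53 for fatty acid supply and 0.06 for fatty acid oxidation. In Th17 these medians were -0.16, -0.51, 0.35, 0.54 and 0.28, all beside medians of all genes near 0.

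How alike the members were over the 10 group means was described by the Pearson correlation of each gene with the mean standardised level of the 19 mevalonate and sterol genes, which include the gene itself for those 19. Fdps was at 0.992, Tm7sf2 at 0.989 and Lss at 0.987, and of genes outside the 19 Fads2 was at 0.970 and Stard4 at 0.965. Ebp, at 0.666, and Ggps1, at 0.073, followed the other cholesterol genes least, and Abcg1 was at -0.625, Elovl6 at -0.373 and Mylip at -0.335. Of genes outside the list, Tnnt1, a troponin of slow muscle, was at 0.985, Atp5d, a subunit of ATP synthase, at 0.983, Asah1, an acid ceramidase, at 0.979, and Aldoa, a glycolytic aldolase, at 0.973. The 10 points share libraries and depth with the score, and many genes follow the same order of groups.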

How the data were processed

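RNA-seq was analysed in 30 libraries of 10 groups, taken from the sample titles. Sort wording in the labels' protocols is Thy1.1 positive for both compartments, and titles were followed. For every library the authors deposited expected counts and TPM by gene, per the file headers. RSEM and mm10 come from the submitters' processing notes; no source used here gives the aligner or versions. The SMART-Seq2-type libraries of the labels' protocols mark neither molecules nor strand, and RSEM divides shared reads by estimate. Other deposited columns were not used.

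Expected counts were rounded. Genes passing filterByExpr of edgeR 4.0.16 (R 4.3.3), 12611 of 23420, were scaled by TMM and tested with glmQLFit and glmQLFTest in 1 fit of 30 libraries with a mean per group. The p-values were two-sided, adjusted by Benjamini-Hochberg over all genes and called below 0.05. Standard errors come from the F statistic. CPM used TMM-scaled totals; TPM were as deposited. Biological variation was 8.07% (common coefficient). Each title number was shared by an IL-10 positive and an IL-10 negative library of the same culture. Deviations from group means correlated at -0.046 to 0.055 for same-numbered compartments (15 pairs) and -0.105 to 0.076 for others (30 pairs). With 3 libraries a group such correlations cannot exclude pairing, which the main fit did not model.

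Members, lists and tests were chosen with earlier results of these data known. Named genes were the members; per related list, those with the smallest p-values for the mean difference and for its inequality; and the non-members most like the cholesterol genes, of which some are not reported here. Promoters were printed for the 4 cholesterol genes with the smallest mean-difference p, and none for paralog pairs. The smallest library had 4394704 counts, and scripts were tested on simulated data. Alternatives were other size factors, DESeq2 1.42.0, no filter, a replicate block, 6-library fits, thinning to 4394658 counts (seed 7), leaving out each library, and deposited TPM. Figures used matplotlib 3.10.9 in Python 3.11.15. Sequences and coordinates are RefSeq's on GRCm38.p6.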

Additional observations from a re-analysis of the deposited data

Results flagged for a closer look

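For 34 of the 37 genes the IL-10 positive minus negative difference was unequal over the 5 cultures by the interaction test in edgeR, with Benjamini-Hochberg adjustment over 12611 genes, of which 60.7% were also called. In the mevalonate pathway the adjusted p-values were 9.37e-16 for Fdps, 1.09e-15 for Idi1, 1.45e-15 for Hmgcs1, 2.64e-13 for Acat2, 2.18e-11 for Pmvk, 2.2e-07 for Mvd, 0.000952 for Mvk and 0.0371 for Ggps1. In sterol synthesis they were 1.98e-16 for Cyp51, 1.18e-13 for Sqle, 4.5e-12 for Fdft1, 5.34e-10 for Sc4mol, 3.97e-09 for Lss, 2.28e-07 for Sc5d, 4.61e-07 for Ebp, 1.99e-06 for Nsdhl, 6.35e-06 for Hsd17b7, 0.000413 for Dhcr7 and 0.00577 for Tm7sf2. In SREBP control and sterol transport they were 6.48e-08 for Insig1, 1.05e-06 for Stard4, 7.89e-06 for Srebf1 and 0.000116 for Srebf2. In fatty acid synthesis and desaturation they were 1.16e-12 for Scd2, 2.31e-10 for Elovl6, 3.32e-10 for Scd1, 1.31e-06 for Fads2, 5.86e-06 for Fads1, 3.49e-05 for Acly, 0.0044 for Acaca and 0.0187 for Fasn. In LXR and cholesterol efflux they were 4.14e-12 for Mylip, 8.1e-11 for Abca1 and 7.61e-06 for Abcg1. Insig2, Scap and Nr1h2 did not pass. The sizes by culture for Cyp51 were 1.28 in Th1, 0.22 in Th2, 1.53 in Th17, 0.05 in pTh17 and 1.81 in Tr1 on the log2 scale. Those for Abca1 were 0.76, 1.60, -2.20, 0.72 and -1.52 in the same order. The call of Ggps1 was lost in 14 fits that left out 1 library, with adjusted p up to 0.0967 without IL-10 positive Th17 library 10, and that of Fasn without IL-10 negative Th17 library 10 (adjusted p = 0.053).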

How the results depend on the processing

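No called result reversed under the alternatives run. In deposited TPM the median over all tested genes shifted by -0.15 in Th17, and 16 called member differences moved by more than the spread between replicates, 94 by less, none with a change of sign. Of the differences not called, 9 had the opposite sign in TPM, among them Acly and Srebf2 in Th17 and Acat2, Acly, Fasn and Stard4 in Tr1. Counts of members called in each direction stayed within 1.5 times the main count except as follows. Lower in Th1 (2) became 1 with other size factors, 1 with DESeq2, 0 without the filter, 1 after thinning and 1 to 2 when a library was left out. Lower in pTh17 (4) became 2 after thinning and 1 to 3 when a library was left out, and higher in pTh17 (8) 5 to 7. A greater difference in pTh17 (1) became 0 after thinning and 0 to 1. A greater difference in Tr1 (5) became 3 without the filter and 3 to 5, and a smaller one (3) became 6 without the filter and 2 to 4. Against the other cultures, lower in Th1 (2) became 1 to 2 and higher in Tr1 (5) became 3 to 5. When a library was left out, counts higher in IL-10 positive cells were 30 in Th1, 13 to 16 in Th2, 23 to 24 in Th17 and 17 to 19 in Tr1. With the title's number as a replicate block, 31 were higher in Th1, 16 in Th2, 23 in Th17, 8 in pTh17 and 20 in Tr1. Whether the numbers mark pairs was not settled. The cause of these changes was not tested. Depth limits Scd1 and Fads2 in Th17 and Tr1, where groups held 3 to 127 counts. With 3 libraries a group whose independence is not stated, small differences rest on single libraries.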
